A study of Mus musculus with 6 samples.

Results

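The nuclear-encoded subunits of the oxidative phosphorylation complexes were compared between 3 control and 3 necrotizing enterocolitis (NEC) libraries of mouse intestine. Members were the protein-coding genes whose symbols begin with Ndufa, Ndufb, Ndufc, Ndufs or Ndufv, the 4 genes Sdha to Sdhd, and those beginning with Uqcr, Cox4 to Cox8 or Atp5. This rule found 94 gene identifiers carrying 93 symbols among the 54446 identifiers of the table. Of these, 90 passed the filter on low counts and were tested among 19176 genes. They comprised 36 complex I subunits, 8 complex I assembly factors (the Ndufaf genes), 4 complex II, 8 complex III, 16 complex IV and 16 ATP synthase genes, with Cox7a2l and Atp5s counted apart. Ndufa4 and its relative Ndufa4l2 were placed with complex IV, where the Ndufa4 protein is found. The 4 identifiers not tested were Cox7b2, Cox8c and a second Atp5o identifier, all at 0 counts in every library, and Cox6a2, at no more than 0.129 CPM, counts scaled to a common library size.

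The samples were RNA sequencing libraries of intestine from wild-type mice, taken at 96 h. Control pups were fed by their dams, with neither hypoxia nor cold stress. NEC pups received by gavage 40 µl of 33% Esbilac formula every 4 h over those 96 h. Every 12 h they were also held in 99.9% nitrogen for 100 s and then at 4 °C for 10 min, a protocol used to model the intestinal disease of preterm infants. No allele or other agent is named for either group, and the sources used here give neither the segment of intestine nor the age or sex of the pups. Whether each library came from its own animal is not stated either, so p-values measure only the spread between these libraries. Control replicates 2 and 3 differed in Xist and Y-linked counts, given below, so the spread among controls is not technical alone. The NEC libraries were alike in both, and their spread may be technical.

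Oxidative phosphorylation makes most of a cell's ATP in the inner mitochondrial membrane. Complex I (NADH dehydrogenase) and complex II (succinate dehydrogenase) pass electrons to ubiquinone, complex III (the cytochrome bc1 complex) passes them on to cytochrome c, and complex IV (cytochrome c oxidase) hands them to oxygen, while ATP synthase uses the proton gradient that complexes I, III and IV build. A small core of these subunits is encoded in mitochondrial DNA, and the nuclear genome encodes the rest, including pairs of common and tissue-restricted isoforms in complex IV. In the intestine, the absorptive epithelium depends on this pathway for nutrient transport, and ischaemia and hypoxia are among the insults associated with necrotizing enterocolitis.

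Total counts ran from 69441184 to 106304239 per library. All 37 mitochondrially encoded genes were at 0 in every library, so their subunits could not be compared, while 4 mitochondria-like nuclear pseudogenes held 1.8 to 3.94% of the counts. Epithelial markers (Epcam, Cdh1, Krt8, Vil1 and Cdx2) summed to between 5354 and 5702 CPM in controls and between 4335 and 6330 CPM in NEC. Enterocyte marker sums also overlapped, at 69827 to 142245 and 57789 to 144719 CPM, but came mostly from Apoa4 and Apoa1. Of the 6 enterocyte markers, 5 had negative log2 fold changes and 1, Apoa1, a positive one (0.12), with none called. Lct was lower in each NEC library (-1.94, edgeR adjusted p 0.0761). Fabp1 was at -1.82 with overlapping groups (edgeR adjusted p 0.278), and the other 3 lay between -0.25 and -0.21. Sums did not overlap for neutrophil (0.94 to 1.94 in control, 6.12 to 27.3 in NEC) or erythroid markers (145 to 213, 337 to 1683). Nor did they for fat (27.7 to 34.9, 80.9 to 128) or pancreas (20.8 to 39.7, 3 to 5.59), lists in which 3 of 4 markers stayed below 1 CPM. The fat sum thus rested on 1 gene, the only fat marker tested, which was called higher by edgeR (log2 fold change 1.63). Of 2 tested pancreas markers, 1 was called lower, beside 0.704% of all genes called in either direction. Their part in the member values was not tested. Xist, the RNA made from the inactive X chromosome of females, reached 179 CPM in control replicate 1 and 344 CPM in control replicate 2, against 1.17 CPM or less in the other 4 libraries. Summed CPM of 4 Y-linked genes was 79.7 in control replicate 1, 3.35 in control replicate 2 and between 115 and 156 elsewhere, so control replicate 1 held both. The medians of the members and of their complexes, and the genes whose direction turned, are therefore also given without these controls. The sample codes in the labels begin with AG181017 for control replicates 1 and 2 and NEC replicates 2 and 3, and with AG181028 for control replicate 3 and NEC replicate 1. What the code stands for is not given. Leaving out control replicates 1 and 2 keeps only control replicate 3, of code AG181028, against NEC libraries of both codes. Differences under that setting therefore mix group and code.

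None of the 90 tested members was called changed between NEC and control, against 0.704% of all genes tested (edgeR's quasi-likelihood test, Benjamini-Hochberg adjusted p below 0.05). An unadjusted p below 0.05 was reached by 3 of 90 members (3.33%), against 15.6% of all genes. They were Cox7a1, a muscle-type complex IV isoform, Sdha, the catalytic subunit of complex II, and Atp5s, a coupling factor of ATP synthase, each lower in NEC. Limma-voom called no member, against 151 of the 19176 genes tested. DESeq2 called 1, Cox7a1, against 5.86% of the genes to which it gave an adjusted p. The groups did not overlap in 8 members (8.89%), 6 of them lower in NEC and 2 higher, against 22.4% of all genes.

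The members split evenly, with 45 of 90 positive and 45 negative log2 fold changes (NEC minus control), and their median was 0.0019, beside 0.026 over all genes tested. Scaling by library size alone moved the median of the members to 0.068. Without control replicates 1 and 2 it was 0.26, with only control replicate 3, of code AG181028, left. Leaving out 1 library at a time, it ran from -0.13 without NEC replicate 3 to 0.096 without NEC replicate 1. The quartiles of the members were -0.17 and 0.19. The median absolute log2 fold change was 0.19, beside 0.43 for all genes and 0.33 for the 3527 genes with a mean of at least 50 CPM. The 95% interval of the fold change stayed within 2-fold in either direction for 68 of 90 members (75.6%), beside 23.2% of all genes and 46.2% of those with at least 50 CPM. For the remaining members these 6 libraries did not exclude a change of 2-fold.

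**Figure D1:**
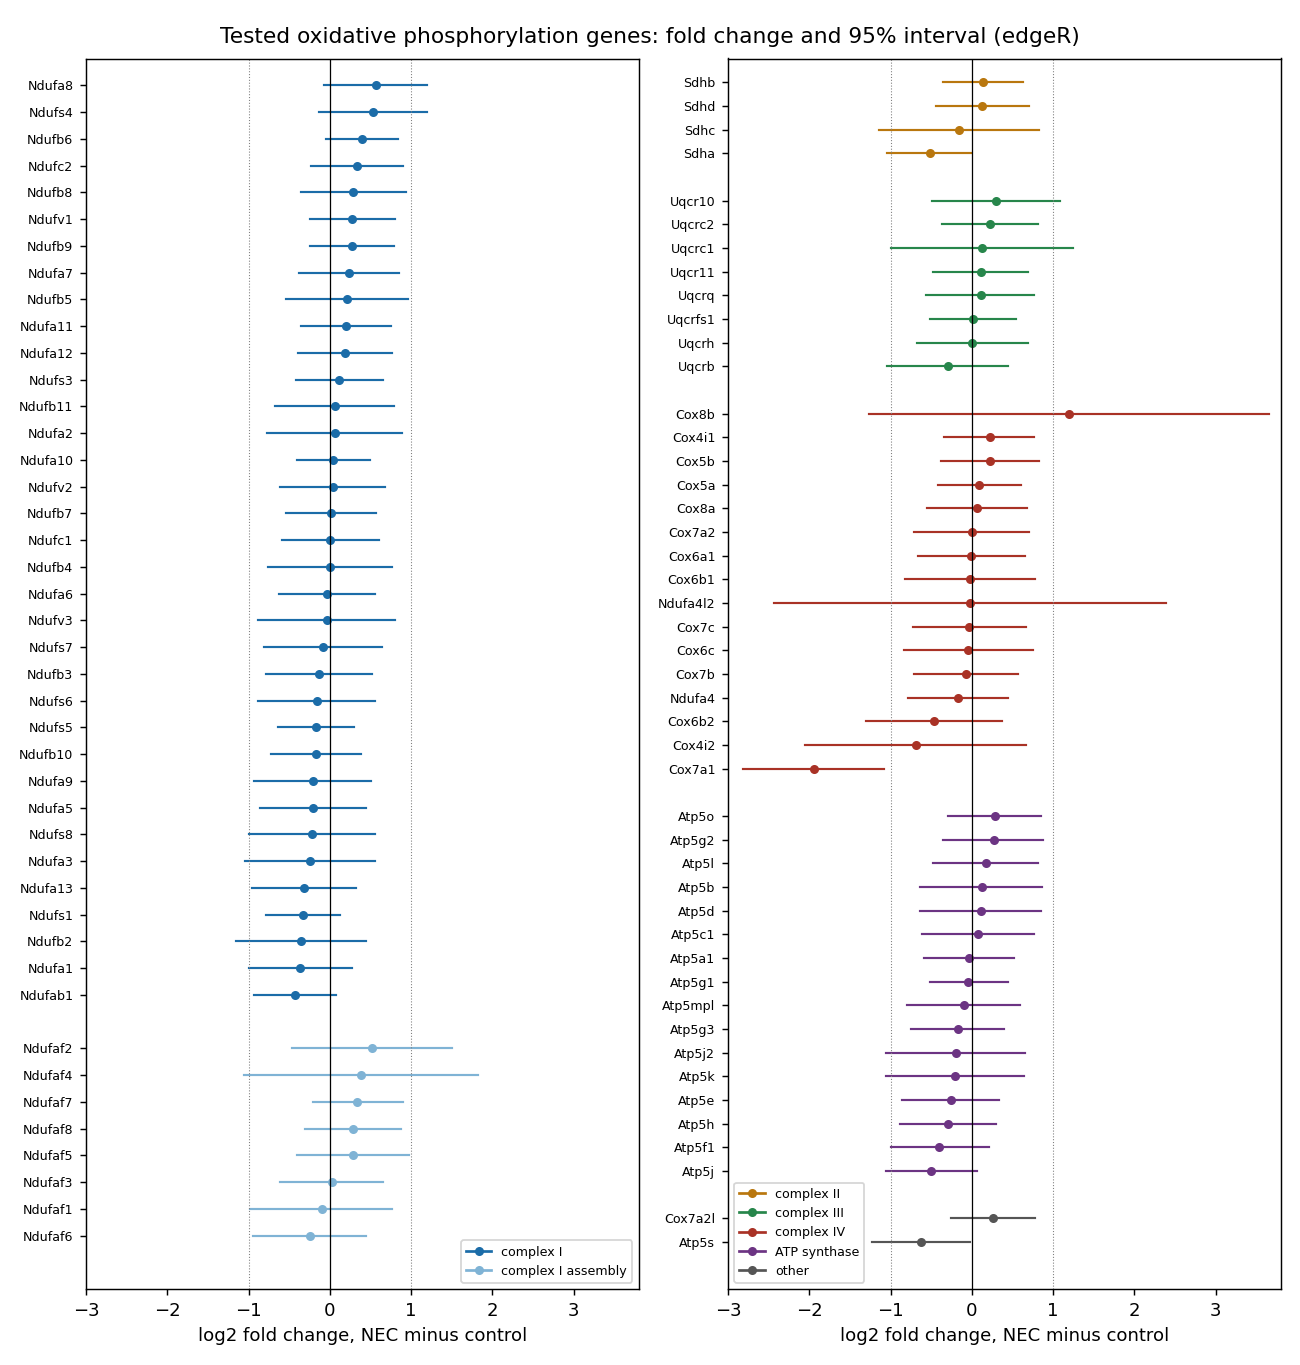
Each point is the log2 fold change (NEC minus control) of a tested member and each line its 95% interval from the edgeR fit, grouped by complex, with dotted lines at 2-fold. Most intervals cross 0 and stay inside the dotted lines, and the interval of Cox7a1 lies from -2.81 to -1.08.

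Summed over all members, the level was 17722, 18433 and 16375 CPM in control replicates 1 to 3 and 15576, 16540 and 20425 CPM in NEC replicates 1 to 3. The group means were 17510 ± 1045 (SD, n = 3) and 17514 ± 2567 CPM (SD, n = 3), and the members took 1.56 to 2.04% of the counts of a library. NEC replicate 3 was the highest of the 6 libraries and NEC replicate 1 the lowest, so the groups overlapped throughout. In these bulk samples, fewer cells of a type and less RNA per cell cannot be told apart.

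**Figure D2:**
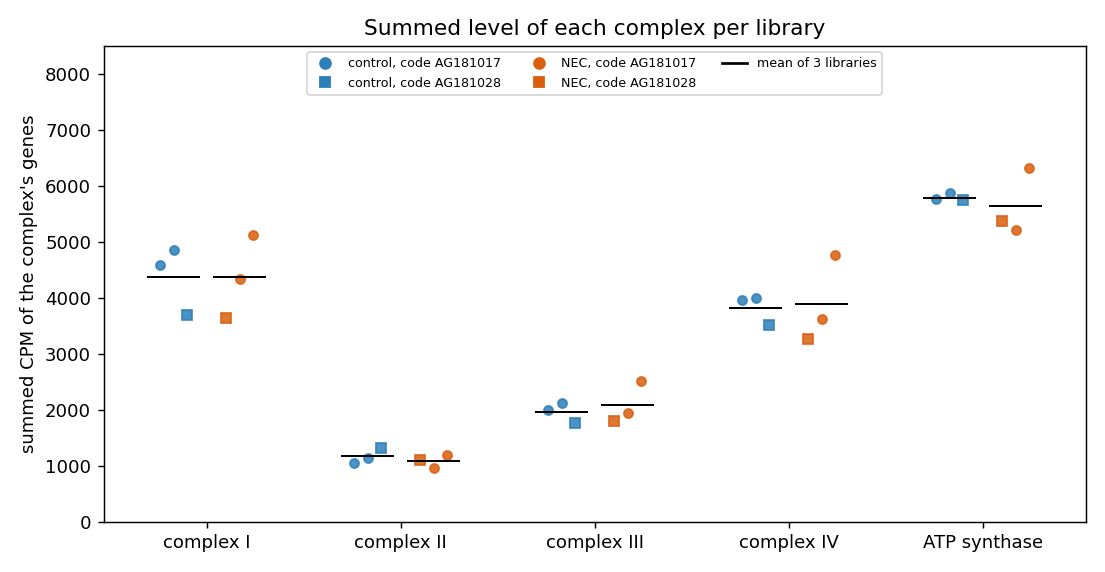
Summed CPM of the genes of each complex in each library, with controls in blue, NEC in orange, squares for sample codes beginning AG181028, circles for AG181017 and bars for the mean of 3 libraries. Control and NEC libraries overlap in every complex, and the square of each group is its lowest point in complexes I, III and IV.

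Complex I, the entry point for electrons from NADH, was the largest set. Its summed level was 4579, 4849 and 3694 CPM in control replicates 1 to 3 and 3634, 4341 and 5124 CPM in NEC replicates 1 to 3. None of its 36 subunits had an unadjusted p below 0.05, 18 were higher and 18 lower in NEC, and their log2 fold changes ran from -0.43 (Ndufab1) to 0.57 (Ndufa8) with a median of 0.001. That median ran from -0.14 without NEC replicate 3 to 0.084 without NEC replicate 1 and was 0.3 without control replicates 1 and 2. Per kilobase of transcript, the median level was 128 CPM in controls and 131 CPM in NEC, and in controls it ranged from 29.8 (Ndufb2) to 549 (Ndufa3).

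Among the accessory subunits, Ndufa8 stood at 90.2, 65.6 and 104 CPM in control replicates 1 to 3 and 146, 96.1 and 144 CPM in NEC replicates 1 to 3, a log2 fold change of 0.57 (SE 0.27, edgeR adjusted p 0.375). NEC replicate 2 fell among the controls. Ndufb6, an accessory subunit of the membrane arm, was 46.5, 46.5 and 49.4 CPM in control and 60.4, 63.8 and 63.1 CPM in NEC. All NEC libraries lay above all controls, with little spread in either group, and the log2 fold change was 0.4 (SE 0.19, edgeR adjusted p 0.379). Ndufb6 overlaps Smim27 on the opposite strand, and because the sources used here give no strand setting for the counting, their reads may be shared. The same holds for 31 of the 90 tested members, which overlap a gene on the opposite strand, and close copies such as processed pseudogenes may also share counts. Ndufb9, another accessory subunit of that arm, was the second member with no overlap and higher values in NEC, with 178, 180 and 165 CPM in control and 194, 185 and 253 CPM in NEC. Its log2 fold change was 0.27 (edgeR adjusted p 0.622), and the gap between the groups was small beside the height of NEC replicate 3.

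Ndufab1 encodes the mitochondrial acyl carrier protein, which serves in complex I and in fatty acid and lipoic acid synthesis. Its level was 104, 92.2 and 86.1 CPM in control and 80.6, 62 and 67.7 CPM in NEC, lower in each NEC library than in any control (log2 fold change -0.43, SE 0.21, edgeR adjusted p 0.39). Ndufs1, the largest of the iron-sulphur core subunits, was likewise lower in each NEC library, at 97.3, 106 and 114 CPM in control and 79.5, 86.7 and 84.7 CPM in NEC (a difference of -0.33 on the log2 scale, SE 0.20, edgeR adjusted p 0.473). It overlaps Eef1b2 and other genes on the opposite strand. Ndufs4, an accessory subunit of the NADH-oxidising module whose loss causes Leigh-like disease in mice, was 83.6, 88.2 and 77.1 CPM in control and 78.6, 122 and 159 CPM in NEC. NEC replicate 1 stayed within the control range, and the log2 fold change was 0.53 (SE 0.29, edgeR adjusted p 0.427).

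Of the remaining complex I subunits named by smallest p or highest level, Ndufc2 had a log2 fold change of 0.33 and Ndufa1, an X-linked subunit of the membrane arm, one of -0.37. Ndufa1 was 153, 153 and 98.6 CPM in control and 82.7, 103 and 127 CPM in NEC, so control replicate 3 lay within the NEC range and the controls with Xist counts lay above it. Without those 2 controls, which leaves only control replicate 3, the value for Ndufa1 was 0.08 rather than -0.37. Those controls are also of code AG181017, and the AG181028 library had the lowest Ndufa1 level of its group in both control and NEC. The log2 difference of Ndufa1 for AG181028 against AG181017 was -0.55 (edgeR adjusted p 0.231). The part of code or of Xist in the Ndufa1 values was not tested. The 2 most abundant subunits by CPM, Ndufa3 and the X-linked Ndufb11, had log2 fold changes of -0.24 and 0.062. Among core subunits besides Ndufs1, the log2 fold changes of Ndufv1, Ndufv2, Ndufs3, Ndufs7 and Ndufs8 ran from -0.22 to 0.27 with overlapping groups in each.

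The 8 Ndufaf genes, which build complex I but are not part of it, were expressed at a median of 8.4 CPM per kilobase in controls and 9.06 in NEC. None had an unadjusted p below 0.05, 6 were higher and 2 lower in NEC, and the median log2 fold change was 0.28. Leaving out 1 library at a time, it ran from 0.096 without control replicate 1 to 0.4 without control replicate 2, and it was 0.13 without control replicate 3. Leaving out control replicates 1 and 2 together gave 0.39. Ndufaf7, a mitochondrial methyltransferase, was 15.8, 19.9 and 14.5 CPM in control and 19.7, 21.3 and 22.7 CPM in NEC. The lowest NEC library lay just under the highest control (log2 fold change 0.34, edgeR adjusted p 0.554). Ndufaf2, Ndufaf8 and Ndufaf5 had log2 fold changes of 0.52, 0.28 and 0.28.

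Complex II links the citric acid cycle to the respiratory chain and is encoded entirely in the nucleus. Its flavoprotein subunit Sdha (chr13:74322254-74350280, minus strand, mm10) was 360, 377 and 467 CPM in control replicates 1 to 3 and 292, 272 and 274 CPM in NEC replicates 1 to 3. All 3 NEC libraries lay below all controls and close together, at a mean of 279 ± 11 CPM (SD, n = 3) against 401 ± 57.7 CPM (SD, n = 3). The log2 fold change was -0.52 (SE 0.22), with an unadjusted p of 0.0476 and an adjusted p of 0.314 in edgeR. The other 3 subunits did not share this direction uniformly. Sdhb, the iron-sulphur subunit, was 202, 218 and 218 CPM in control and 216, 218 and 268 CPM in NEC (log2 fold change 0.14). The membrane anchors Sdhd and Sdhc had log2 fold changes of 0.13 and -0.16, and Sdhc varied most, with 97.2 CPM in NEC replicate 2 as its lowest and 270 CPM in control replicate 3 as its highest level. Without control replicates 1 and 2, Sdha stood at -0.74 (SE 0.36, edgeR adjusted p 0.55) with 1 control left.

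The 8 complex III genes found by the rule, which leaves out the subunit Cyc1, summed to 1991, 2122 and 1769 CPM in control. In NEC they summed to 1794, 1947 and 2516 CPM. No subunit had an unadjusted p below 0.05, and the groups overlapped in all 8. By sign, 7 subunits were higher and 1 lower in NEC, with a median log2 fold change of 0.11. This direction rested on NEC replicate 3, without which the median was -0.079. With control replicate 3 left out it came to 0.036, and with control replicates 1 and 2 left out to 0.31. Uqcrb, a small subunit near the ubiquinone site, was the negative one at -0.29, with 220, 278 and 149 CPM in control and 122, 211 and 195 CPM in NEC. Its lowest control lay below 2 of the 3 NEC libraries. The core subunit Uqcrc2 and the small subunit Uqcr10 had log2 fold changes of 0.23 and 0.3, while the Rieske iron-sulphur protein Uqcrfs1, which carries electrons to cytochrome c1, was at 0.021. Uqcrq was the most abundant per kilobase, with 946 CPM in controls and 1018 CPM in NEC.

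Complex IV held the member furthest from 0. Cox7a1 (chr7:30184144-30186078, plus strand, mm10) encodes the isoform of subunit 7a that predominates in heart and skeletal muscle and in brown fat, and Cox7a2 (chr9:79755361-79759878, minus strand, mm10) encodes the form found in most tissues. The stretches before the RefSeq start of each gene (GRCm38.p6) are shown because this pair gave the clearest contrast, with bases in annotated exons left out. The Cox7a1 stretch is chr7:30183921-30184143 on the plus strand and the Cox7a2 stretch chr9:79759879-79760103 on the minus strand. Both are in lower case throughout because neither window held any of the 5 motifs searched.
Cox7a1: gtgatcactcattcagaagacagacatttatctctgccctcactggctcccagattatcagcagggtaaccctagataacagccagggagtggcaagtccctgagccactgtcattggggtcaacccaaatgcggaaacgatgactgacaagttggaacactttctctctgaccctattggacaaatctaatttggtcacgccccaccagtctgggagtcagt
Cox7a2: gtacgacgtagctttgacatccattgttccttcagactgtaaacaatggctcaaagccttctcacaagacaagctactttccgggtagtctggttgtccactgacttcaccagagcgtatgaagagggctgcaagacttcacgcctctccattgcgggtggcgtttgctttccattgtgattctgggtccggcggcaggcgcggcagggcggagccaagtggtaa

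Cox7a1 was 20.9, 14.1 and 11.9 CPM in control replicates 1 to 3 and 2.78, 5.52 and 3.89 CPM in NEC replicates 1 to 3, from 984 to 1534 counts per control library and 265 to 489 counts per NEC library. Every NEC library lay below every control, and the highest NEC value was under the lowest control by a wide margin. The mean was 15.6 ± 4.69 CPM (SD, n = 3) in control and 4.06 ± 1.38 CPM (SD, n = 3) in NEC, a ratio of 3.85. The log2 fold change was -1.94 (SE 0.37), with an edgeR adjusted p of 0.0688, just outside the threshold of 0.05. It passed the threshold with no filter on low counts (edgeR adjusted p 0.0473), with the sample code as a term (edgeR adjusted p 0.0358) and in DESeq2 (adjusted p 0.000163), at log2 fold changes between -1.96 and -1.93. Over the 19 alternatives the adjusted p ran from 0.000163 to 0.437. The latter came without control replicates 1 and 2, where 1 control was left and the log2 fold change was -1.55 (SE 0.53).

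Its ubiquitous counterpart Cox7a2 was 219, 260 and 157 CPM in control and 150, 216 and 271 CPM in NEC. These ranges lay almost on top of each other, and the log2 fold change was -0.0018, with an edgeR 95% interval from -0.71 to 0.71. Per kilobase of transcript, Cox7a1 made up 12.5, 7.54 and 10.2% of the 2 isoforms together in the 3 controls, in order of replicate, and 2.71, 3.7 and 2.11% in the 3 NEC libraries. The share in each NEC library was thus under that in any control.

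Markers of tissues known to express Cox7a1 were measured beside it. Of the 7 striated muscle markers, 6 were tested and none was called. Their summed level was 17 to 21.5 CPM in controls and 7.22 to 15.2 CPM in NEC, also without overlap. Of the 6, 3 had negative log2 fold changes (Ryr1 -1.84, Acta1 -1.4 and Ckm -0.72) and 3 positive ones (Myh3 1.3, Tnnt3 0.74 and Myl1 0.26). Most of the sum came from Ckm, muscle creatine kinase, at 11.7, 10.3 and 7.53 CPM in control and 2.35, 9.51 and 6.09 CPM in NEC, and from Ryr1, a calcium release channel. Ryr1 was 7.34, 3.18 and 7.62 CPM in control and 2.84, 1.56 and 0.661 CPM in NEC, without overlap (unadjusted p 0.0159, edgeR adjusted p 0.208). The other 5 were low in all libraries, with Acta1, skeletal muscle actin, at or below 1.61 CPM, Myl1 and Tnnt3 at or below 1.84 CPM, Myh3 at or below 0.587 CPM and Myh8 at or below 0.402 CPM and at 0 in NEC. The 5 smooth muscle markers summed to 823 to 1930 CPM in controls and 1001 to 2864 CPM in NEC, with none called. Of the 5 brown fat markers, 3 were tested and none was called, and their sum was 3.63 to 14.3 CPM in controls and 7.42 to 39.6 CPM in NEC. This sum rested on few genes, as 3 of the 5 stayed below 1 CPM in every library and Cidea at or below 2.67 CPM. The defining Ucp1 was at or below 0.181 CPM, and Cox8b, also on this list, is itself a member. The part of these markers in the Cox7a1 values was not tested.

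The other complex IV isoform pairs showed no such separation. Cox4i1, the common form of the largest nuclear-encoded subunit, was 396, 382 and 548 CPM in control and 516, 505 and 518 CPM in NEC (log2 fold change 0.22). Its partner Cox4i2, a form known from lung and from hypoxic cells, stayed at or below 1.55 CPM in all libraries (log2 fold change -0.69, SE 0.59). Cox6b2, an isoform known from testis, was 48.2, 25.3 and 19 CPM in control and 21.1, 21 and 24.9 CPM in NEC. Only control replicate 1 stood apart, and its log2 fold change of -0.46 ran from -0.73 to 0.012 when 1 library at a time was left out. Per kilobase it made up between 5.25 and 12% of Cox6b1 and Cox6b2 together. The other 2 testis markers, Ldhc and Cyct, were at or below 0.19 CPM.

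Cox8b, a heart, muscle and brown fat form, was at or below 0.745 CPM, and its log2 fold change of 1.2 (SE 1.06) rested on 4 to 66 counts per library. Cox8a, the common form, was 519, 416 and 473 CPM in control and 442, 399 and 637 CPM in NEC (log2 fold change 0.068). Ndufa4l2, a relative of Ndufa4 that is known to respond to hypoxia, was 0.681, 0.172 and 3.48 CPM in control and 2.76, 0.508 and 1.01 CPM in NEC. Its high values were control replicate 3 and NEC replicate 1, the libraries whose codes begin with AG181028, and the NEC minus control log2 fold change was -0.026 (SE 1.04). Without the AG181028 libraries it was 0.79, and its direction also turned under DESeq2, limma-voom and the fits with a term for replicate or code. The abundant subunits Cox7c and Cox6a1 were at -0.029 and -0.0086, so that of the 16 tested complex IV genes 11 were negative and 5 positive, with a median of -0.023 that turned to 0.035 under scaling by library size alone. It also turned without control replicate 1 (0.0045), control replicate 2 (0.045), both of them (0.16) or NEC replicate 1 (0.13), and was -0.2 without control replicate 3, -0.041 without NEC replicate 2 and -0.22 without NEC replicate 3.

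**Figure D3:**
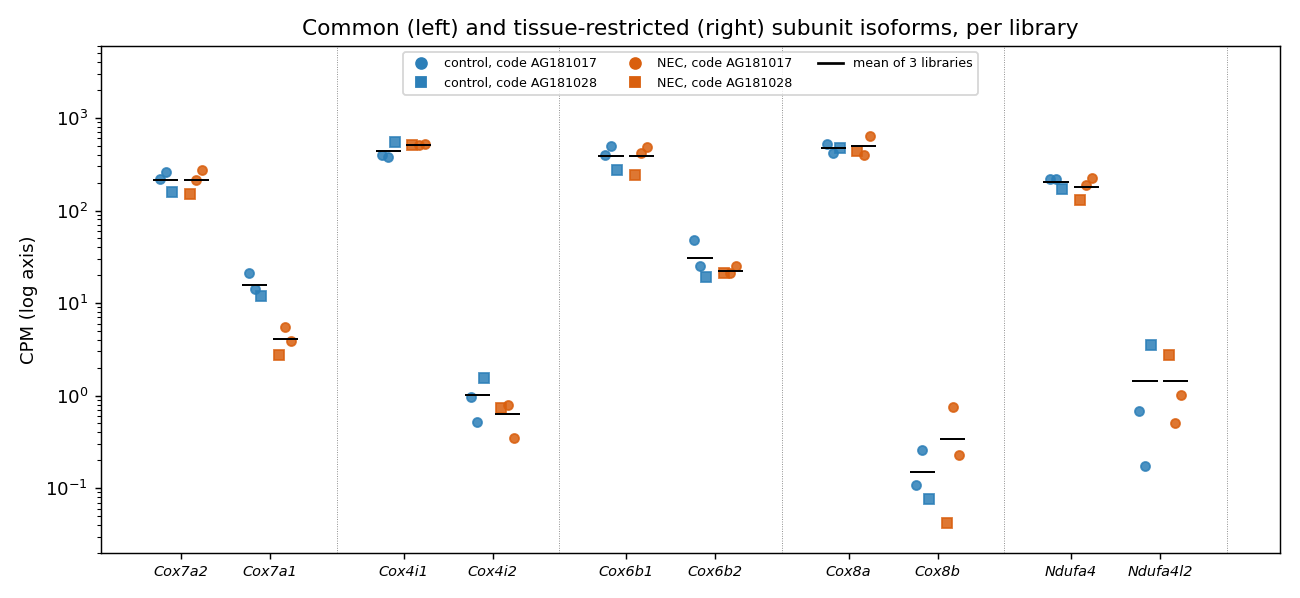
CPM on a log axis of the common (left) and tissue-restricted (right) isoform of 5 pairs in each library, with controls in blue, NEC in orange, squares for sample codes beginning AG181028 and bars for the mean of 3 libraries. Cox7a1 is the pair member whose NEC points (2.78 to 5.52 CPM) all lie below its control points (11.9 to 20.9 CPM), while Cox7a2 overlaps throughout.

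ATP synthase summed to 5766, 5864 and 5745 CPM in control and 5377, 5215 and 6324 CPM in NEC. None of the 16 tested genes had an unadjusted p below 0.05, 10 were negative and 6 positive, and the median log2 fold change was -0.073. Without NEC replicate 1 the median was 0.0042, without NEC replicate 3 it was -0.15, without control replicate 3 it was -0.13, and without control replicates 1 and 2 it was 0.011. The catalytic head subunits were the most abundant members by CPM. Atp5b (beta) was 873, 802 and 1362 CPM in control and 1380, 797 and 1114 CPM in NEC, and Atp5a1 (alpha) was 928, 858 and 1056 CPM in control and 960, 803 and 1010 CPM in NEC. Their log2 fold changes were 0.12 (SE 0.32) and -0.035 (SE 0.24), and the AG181028 library was the highest of its group for Atp5b in both groups.

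The peripheral stalk, which holds the head still while the rotor turns, had values on both sides of 0. Atp5j (coupling factor 6) was 264, 271 and 206 CPM in control and 145, 179 and 203 CPM in NEC. The lowest control was barely above the highest NEC library (log2 fold change -0.5, SE 0.24, edgeR adjusted p 0.374). Atp5j overlaps Gabpa on the opposite strand, and their counts may be shared. Atp5f1 (subunit b) was 323, 454 and 358 CPM in control and 249, 360 and 254 CPM in NEC, with NEC replicate 2 among the controls (log2 fold change -0.4, SE 0.26). Atp5h (subunit d) was at -0.29 and Atp5o, which joins the stalk to the head, at 0.28.

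The 3 genes Atp5g1, Atp5g2 and Atp5g3 encode the same mature ring subunit c. Their log2 fold changes were -0.041, 0.27 and -0.17, each with overlapping groups. Atp5g3 was the most abundant ATP synthase gene per kilobase in controls at 741 CPM. Atp5e (epsilon) and Atp5l (subunit g) were at -0.26 and 0.17. Outside the complex proper, Atp5s was 25.4, 29.7 and 20 CPM in control and 14.4, 19.1 and 15 CPM in NEC, lower in each NEC library than in any control (log2 fold change -0.63, SE 0.26, unadjusted p 0.0429, edgeR adjusted p 0.3). Cox7a2l, which helps complexes III and IV join in supercomplexes, was 262, 309 and 237 CPM in control and 303, 304 and 360 CPM in NEC (log2 fold change 0.26, edgeR adjusted p 0.645).

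More members had an unadjusted p below 0.05 for the sample code than for NEC, in a comparison chosen after seeing the data. In an edgeR fit with group and code, 5 members had an unadjusted p below 0.05 for NEC, beside 3 with group alone. In that same fit, 33 of 90 members (36.7%) had one for AG181028 against AG181017, beside 18.3% of all genes. Of these, 30 were lower and 3 higher in AG181028. For the code, no member passed after adjustment, beside 0.0261% of all genes. DESeq2 and limma-voom were not run for this comparison. The median log2 difference was -0.36 over the members and -0.027 over all genes. The code was divided over both groups, with 1 AG181028 library in each. Among the controls, the AG181017 libraries were also those with Xist counts (179 and 344 CPM, against 1.17 CPM in the AG181028 control). Code and Xist therefore cannot be told apart in the controls, while Xist was low in all NEC libraries.

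Complex I carried 16 of the 33, all lower in AG181028, with examples in Ndufb2 (-0.83), Ndufa3 (-0.84) and Ndufv3 (-0.86). Complex IV carried 7, ATP synthase 5, complex III 4 and the Ndufaf genes 1, while complex II carried none. The 3 members higher in AG181028 were Ndufa4l2 (2.47), Uqcrc1 (1.06), a core subunit of complex III, and Atp5b (0.62). Uqcrc1 was 155, 87.8 and 274 CPM in control and 278, 105 and 182 CPM in NEC, so the AG181028 library was the highest of its group each time.

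The direction of the code difference was mostly shared by the groups. Control replicate 3 against control replicates 1 and 2, and NEC replicate 1 against NEC replicates 2 and 3, had the same sign in 77 of 90 members (85.6%), 61 lower and 16 higher, beside 68.3% of the 17990 genes above 0 in all libraries. These 2 differences share no library. Over the 86 members with a mean of at least 5 CPM, their Spearman correlation was 0.74, a description across genes, which are not independent. Each was also related to transcript length, with Spearman correlations of 0.34 in control and 0.44 in NEC, where shorter transcripts were lower in the AG181028 library. Over 10242 coding genes the same correlations were 0.27 and 0.28. The NEC minus control difference had a correlation of 0.054 with length. Smooth muscle markers moved with the code as well. Of the 5, 4 had an unadjusted p below 0.05 for the code and were lower in AG181028, with log2 differences of -1.55 for Tagln, -1.67 for Myh11, -1.24 for Acta2 and -0.86 for Des, and Actg2 was at -0.42 (edgeR adjusted p at or above 0.172 for each). Tagln, an actin-binding protein of smooth muscle, was 523, 502 and 202 CPM in control and 254, 1048 and 689 CPM in NEC, so the AG181028 library was the lowest of its group both times. The mitochondria-like pseudogenes held 3.82, 3.94 and 1.98% of the counts in the controls and 1.8, 2.23 and 2.53% in NEC, again lowest in the AG181028 library of each group. Total counts were highest in the AG181028 libraries, at 106304239 in control replicate 3 and 97445491 in NEC replicate 1. The AG181017 libraries had 69441184 to 77953991. The part of transcript length, smooth muscle, these pseudogenes or total counts in the code difference was not tested.

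**Figure D4:**
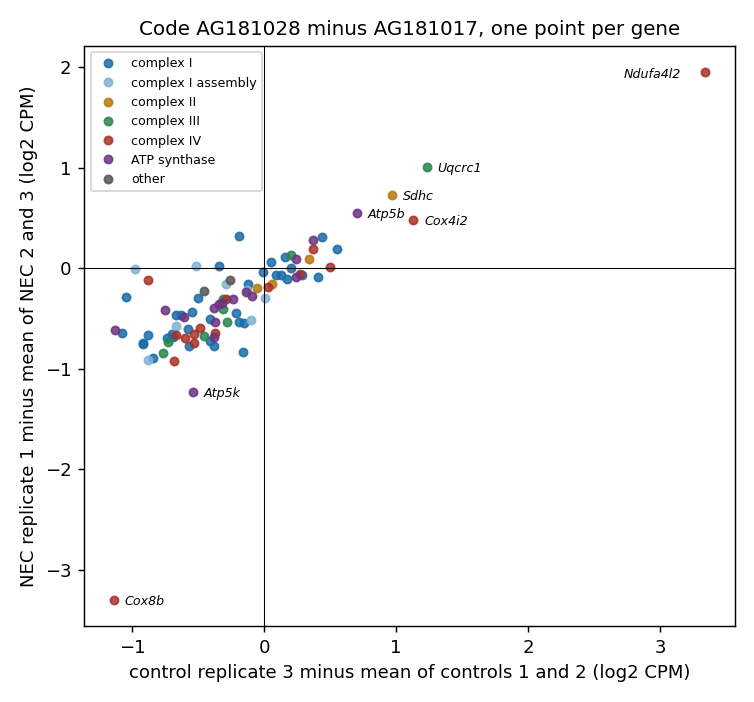
Each point is 1 member, with the log2 CPM difference of control replicate 3 from the mean of control replicates 1 and 2 on the horizontal axis and of NEC replicate 1 from NEC replicates 2 and 3 on the vertical axis, coloured by complex. Most points lie in the lower left part, where 61 of 90 members are lower in the AG181028 library of both groups, and Ndufa4l2, Uqcrc1, Sdhc and Atp5b lie in the upper right.

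Genes that supply, build or regulate the complexes, together with the complex III subunit Cyc1, were taken from 5 lists. None of their 106 tested genes was called by edgeR, beside 0.704% of all genes, and 7 had an unadjusted p below 0.05 (6.6%), beside 15.6%. Limma-voom called none, beside 151 of the 19176 genes tested, and DESeq2 called 3, beside 5.86% of all genes with an adjusted p. The median log2 fold change was -0.061, with 44 genes positive and 62 negative. The assembly factors with other names held 40 genes, 13 positive and 27 negative with a median of -0.11 (0.012 without NEC replicate 1 and 0.055 without control replicates 1 and 2), and both the lowest and the highest value of all 5 lists.

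Coa4, an assembly factor of complex IV, was 55, 45.6 and 35.4 CPM in control and 18.5, 22.9 and 17.5 CPM in NEC. The groups did not overlap, and the log2 fold change was -1.2 (SE 0.26, edgeR adjusted p 0.0859, DESeq2 adjusted p 0.0102). Sdhaf1, which helps to insert iron-sulphur clusters into Sdhb, went the other way. It was 9.25, 8.88 and 13.5 CPM in control and 31.3, 20.6 and 36.5 CPM in NEC, a log2 fold change of 1.48 (SE 0.31, edgeR adjusted p 0.086, DESeq2 adjusted p 0.00266). It overlaps E130208F15Rik on the opposite strand. Tmem126b, which helps to build the membrane arm of complex I, was 44, 57.9 and 30.7 CPM in control and 21, 22.4 and 21.4 CPM in NEC (a difference of -1.03 on the log2 scale, SE 0.28, edgeR adjusted p 0.135).

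Of the 16 tested electron carriers and ubiquinone synthesis genes, 11 were negative and 5 positive, with a median of -0.15. Coq4, which is needed for ubiquinone synthesis, was 27.2, 25.5 and 24.3 CPM in control and 10.2, 15.8 and 11.9 CPM in NEC. Its highest NEC value was well below its lowest control (log2 fold change -1.02, SE 0.26, edgeR adjusted p 0.121, DESeq2 adjusted p 0.0358). Coq4 overlaps Trub2 on the opposite strand. Etfb, which brings electrons from fatty acid oxidation, and the ubiquinone methyltransferase Coq3 were at -0.56 and -0.55. Cytochrome c (Cycs) was at -0.064. Cytochrome c1 (Cyc1), a complex III subunit whose symbol falls outside the rule, was at 0.0015.

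The 19 regulators of mitochondrial biogenesis had no unadjusted p below 0.05 and a median of -0.0048. Ppargc1a, the coactivator that drives expression of these complexes in many tissues, was 17.5, 15.3 and 24.1 CPM in control and 39.2, 10.9 and 22.9 CPM in NEC. NEC held both the highest and the lowest library, and the log2 fold change was 0.36 (SE 0.45). The nuclear respiratory factors Nrf1 and Gabpa were at 0.24 and -0.036, and Tfam, which packages and transcribes mitochondrial DNA, at -0.14. Esrra, a nuclear receptor that acts with Ppargc1a, was 258, 140 and 312 CPM in control and 178, 119 and 151 CPM in NEC (a difference of -0.67 on the log2 scale, SE 0.33, edgeR adjusted p 0.39). Twnk, the mitochondrial DNA helicase, and Mterf1a, a mitochondrial transcription termination factor, were at -0.54 and -0.7.

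The citric acid cycle list had 20 genes, 12 positive and 8 negative with a median of 0.19, or 0.074 without control replicates 1 and 2. Idh3a, a subunit of the NAD-dependent isocitrate dehydrogenase, was 45.3, 48.5 and 53.3 CPM in control and 80.6, 66.3 and 70.4 CPM in NEC. The groups did not overlap (log2 fold change 0.56, SE 0.21, edgeR adjusted p 0.253). Pdk3, a kinase that inhibits pyruvate dehydrogenase, was 38.4, 47.7 and 30.5 CPM in control and 20.7, 26.6 and 23.6 CPM in NEC, again without overlap (log2 fold change -0.72, SE 0.25, edgeR adjusted p 0.235). Suclg2, a subunit of succinyl-CoA synthetase, was at 0.42.

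Among 11 tested membrane carriers and uncouplers, 5 were positive and 6 negative. Slc25a5, an ADP/ATP carrier that exchanges the product of ATP synthase for cytosolic ADP, was 715, 760 and 673 CPM in control and 1152, 922 and 1350 CPM in NEC. All NEC libraries lay above all controls, and the log2 fold change was 0.67 (SE 0.25, edgeR adjusted p 0.256). Its paralog Slc25a4, the heart and muscle form, was 83.9, 76.5 and 44.4 CPM in control and 70.6, 154 and 132 CPM in NEC, with overlap (log2 fold change 0.8, SE 0.37). The mitochondrial pyruvate carrier subunit Mpc1 was at 0.72 (SE 0.32, edgeR adjusted p 0.338).

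**Figure D5:**
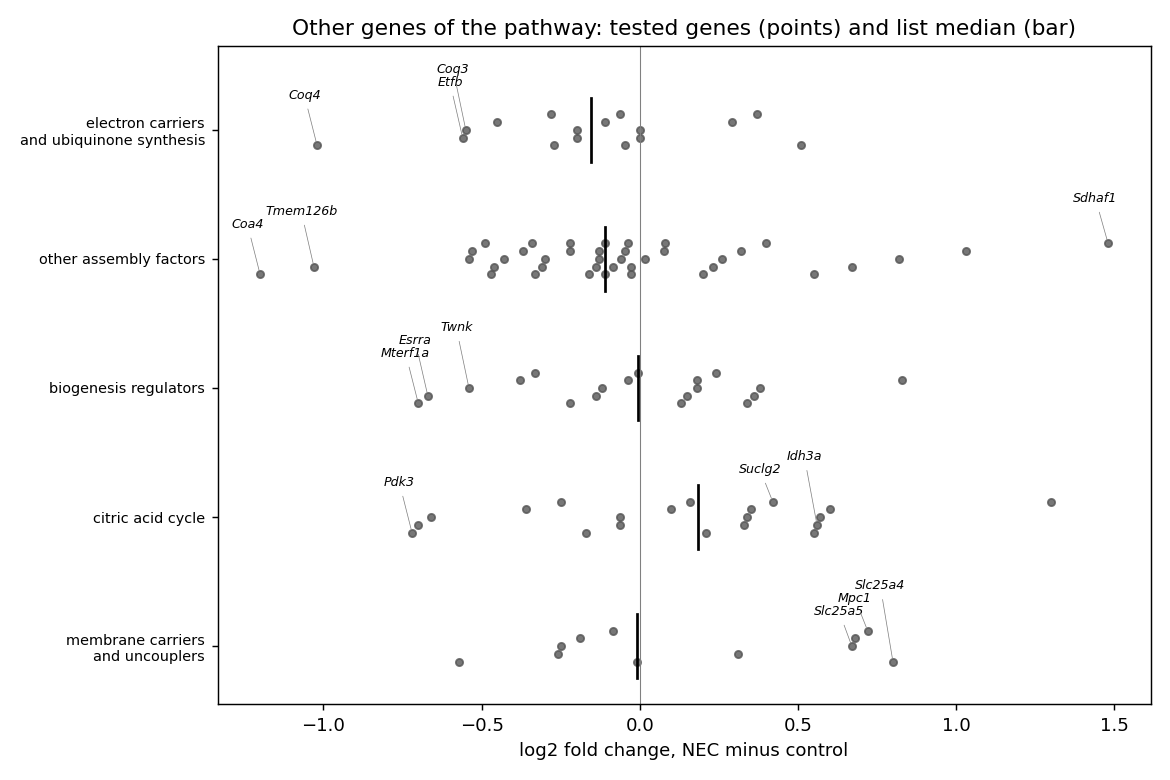
Each point is the log2 fold change (NEC minus control) of 1 tested gene in the 5 lists of other pathway genes, each bar is a list's median, and the 3 genes of smallest p in each list are named. The medians lie between -0.15 and 0.19, and the named genes furthest from 0 are Coa4, Tmem126b and Coq4 on the left and Sdhaf1 on the right, where Pdk4 (1.3) and Coa7 (1.03) are unnamed points.

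The start regions of the members were examined for motifs of factors known to drive this gene set. RefSeq windows of the 250 bases before the start (GRCm38.p6) were found for 74 members and 27025 genes. The NRF1 motif CGCANGCG, searched on both strands, occurred in 20 of 74 members (27%), beside 7.65% of all genes. The ETS motif CCGGAAG, bound by the Gabpa family, occurred in 14 members (18.9%), beside 7.83%. The ERR motif AAGGTCA and the YY1 motif ATGGCGG each occurred in 5 members (6.76%), beside 4.7% and 2.58%. At least 1 of these 4 was present in 33 members (44.6%), beside 20.1% of all genes, while the E-box CAGCTG of muscle regulators occurred in 6 members (8.11%), beside 14.7%. A match is a run of letters and not a shown binding site, and motifs may overlap each other. The 27025 genes were not matched to the members for expression or base content, and the part of either in these shares was not tested.

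The 2 most abundant members whose longest exon-free stretch of at least 120 bases holds the NRF1 motif are shown, with the motif in capitals. The Cox6a1 stretch is chr5:115348982-115349129 on the minus strand, with matches beginning 161 and 116 bases before the start. The Atp5h stretch is chr11:115419963-115420127 on the minus strand, with a match beginning 140 bases before the start. Both genes overlapped between control and NEC, at log2 fold changes of -0.0086 and -0.29.
Cox6a1: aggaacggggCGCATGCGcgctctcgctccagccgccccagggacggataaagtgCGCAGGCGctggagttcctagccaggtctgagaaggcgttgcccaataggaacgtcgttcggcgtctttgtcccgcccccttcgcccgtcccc
Atp5h: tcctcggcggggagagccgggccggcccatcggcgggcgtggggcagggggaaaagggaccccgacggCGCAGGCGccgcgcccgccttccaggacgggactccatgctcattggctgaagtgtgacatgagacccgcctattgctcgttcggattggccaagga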

How the data were processed

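The deposited table holds unnormalized counts, as whole numbers, for each gene in the 6 libraries. The genome build is mm10, per the submitters' processing notes. The sources used here name no aligner, counter, annotation or strand setting. Of 54446 identifiers, 54409 matched GENCODE release M21, which supplied symbols, positions and transcript lengths (the median over basic protein-coding transcripts). A further 13 pseudogenes or non-coding genes matching the symbols were left out. Counts that are multiples of 4, from 8 to 40, were 1.94 times as frequent as the values next to them, so counts may overstate the number of sequenced fragments.

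The main test was that of edgeR 4.0.16, run in R 4.3.3 (filterByExpr with a minimum count of 10, TMM scaling, robust quasi-likelihood fit). P-values were adjusted by Benjamini-Hochberg over 19176 genes against a threshold of 0.05. The script was tested on simulated data. CPM use the library sizes after TMM scaling. An edgeR SE is the absolute log2 fold change divided by the square root of the F statistic. The 95% intervals were built from these SEs with the t distribution and are approximate. Alternatives used DESeq2 1.42.0, in which 7579 genes had no adjusted p, limma 3.58.1, other scalings and filters, a term for replicate number or sample code, and fewer libraries. No correlation between same-numbered libraries passed 0.1 in all pairs (-0.14, 0.27 and -0.01), so the libraries were not treated as paired. Libraries of a group differed by more than sampling noise.

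Genes named were, for each complex, the 4 of smallest p (8 for complex I and ATP synthase), the 2 of highest mean CPM and the isoform pairs, with 4 Ndufaf genes, the 3 of smallest p in each list of other genes, Ppargc1a, Nrf1, Gabpa, Tfam, Cycs and Cyc1. Others are named as range ends, as core subunits or from the sample code comparison, after their values were seen. The members and lists were chosen with earlier results of these data known. A member counted in the totals is not reported by name here and is left out of the plot of fold changes.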

Additional observations from a re-analysis of the deposited data

How the results depend on the processing

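Of 1310 values of the 69 named genes under 19 alternatives, 1236 kept their direction and 74, in 25 genes, did not. Over all genes, 135 calls became 247 with no filter on low counts, 1296 with DESeq2, 243 with the sample code as a term, 25 in the 4 AG181017 libraries alone, 1 without control replicates 1 and 2, and 0 to 106 when 1 library was left out (0 without control replicate 1, 25 without control replicate 3, 34 without NEC replicate 1 and 3 without NEC replicate 3). With the replicate number as a block, 54 genes were called. No member was called with that block, and 3 had an unadjusted p below 0.05. Members called were 1 (Cox7a1) with no filter, DESeq2 or the code term, and 0 whenever 1 library was left out. DESeq2 called 3 of the other pathway genes. Leaving out libraries leaves fewer samples to test, and the cause of each change was not tested.

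Without control replicates 1 and 2, the median log2 fold change became 0.3 in complex I, -0.3 in complex II and 0.26 over all members. The only control left there was control replicate 3, of code AG181028, while NEC replicates 2 and 3 were AG181017, so these values mix group and code. Under that setting the direction turned for Ndufa1 (0.08), Ndufa3 (0.43), Uqcrb (0.24), Cox6b2 (0.24), Cox7c (0.35), Cox7a2 (0.43), Cox6b1 (0.48), Ndufa4 (0.091), Cox7b (0.28), Atp5b (-0.31), Cox4i1 (-0.096) and Cyc1 (-0.43). Scaling by library size alone turned Cox7c (0.034), Cox6a1 (0.036), Atp5a1 (0.02), Cox7a2 (0.062), Cox6b1 (0.05) and Gabpa (0.028). RLE scaling turned Cox6a1 (0.00016) and Cox7a2 (0.00018), upper quartile scaling turned Cox7a2 (0.0031) and Cyc1 (-0.007), and the stricter filter turned Cyc1 (-0.0051). DESeq2 turned Cox6a1 (0.004), Cox7a2 (0.0044) and Ndufa4l2 (0.005). In the 4 AG181017 libraries alone, Cox6a1 (0.033), Cox6b1 (0.0039), Cycs (0.17) and Ndufa4l2 (0.79) turned. Ndufa4l2 also turned with limma-voom (0.42), the replicate block (0.66) and the code term (0.42). Leaving out 1 library in turn, the values that changed sign ran from -0.16 to 0.31 for Ndufb11, -0.45 to 0.21 for Sdhc, -0.085 to 0.26 for Uqcr11, -0.17 to 0.22 for Uqcrq, -0.73 to 0.012 for Cox6b2, -0.16 to 1.86 for Cox8b, -0.24 to 0.16 for Cox7c, -0.17 to 0.15 for Cox6a1, -0.025 to 0.37 for Atp5l, -0.086 to 0.38 for Atp5b, -0.1 to 0.049 for Atp5a1, -0.21 to 0.19 for Cox7a2, -0.23 to 0.23 for Cox6b1, -0.16 to 0.19 for Cox8a, -0.94 to 1.74 for Ndufa4l2, -0.34 to 0.014 for Ndufa4, -0.23 to 0.1 for Cox7b, -0.17 to 0.71 for Ppargc1a, -0.15 to 0.04 for Gabpa, -0.24 to 0.11 for Cycs and -0.17 to 0.27 for Cyc1.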
